A study of Mus musculus with 6 samples.

Results

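The genes described here are 39 genes of the peroxisome: 13 peroxins, which build the organelle, and 26 peroxisomal enzymes and carriers. They were picked by symbol from the 48432 genes of the table, with the results of the comparison of knockout and control liver already known. Their fold changes and adjusted p-values in that comparison are therefore given as a description and support nothing beyond themselves. All 39 were found, none was skipped by the quantifier, and all 39 passed the filter on low counts.

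The libraries come from livers of 10-week-old mice. The 3 control libraries (Ctl) are labelled Albumin-Cre, a transgene that expresses Cre recombinase from the albumin promoter and so in hepatocytes. The other 3 libraries (Li-KO) are labelled as a knockout of Klf15 restricted to the liver. The labels name neither the Cre driver of the Li-KO mice nor the exon removed, and do not say whether the control mice carried floxed alleles of Klf15, whether each library is a separate mouse, or the sex and feeding state of the mice. P-values therefore rest on the spread of these libraries, which may be technical.

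Peroxisomes shorten very long and branched fatty acids, finish the side chain of bile acids, begin the synthesis of ether lipids and break down hydrogen peroxide. Peroxins insert membrane proteins, carry enzymes across the membrane and divide the organelle. In rodent liver many peroxisomal enzymes are targets of the nuclear receptor PPARalpha. Klf15 is a Kruppel-like transcription factor that acts in liver amino acid and lipid metabolism.

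Library totals were 30132496 to 42782324 fragments, and the 39 genes had between 147 and 188226 raw fragments in a library. Klf15 itself was at 345.5, 174 and 196 CPM (counts scaled to library size) in Ctl replicates 0, 1 and 2 and at 54.3, 41.6 and 51.8 CPM in the Li-KO replicates. On the log2 scale this difference, Li-KO minus Ctl here and throughout, was -2.28 ± 0.26 (SE), with adjusted p = 0.00275 from the quasi-likelihood test of edgeR. Of 10 hepatocyte markers, Alb, Cyp2e1, Cps1 and Serpina1c were skipped by the quantifier (Cyp2e1 in the Ctl libraries, the others in all), and the other 6 summed to 10700 to 17500 CPM in Ctl and 13800 to 17100 CPM in Li-KO. Of these 6, Tdo2, which breaks down tryptophan, was called lower, from 2325 ± 697 to 526 ± 27.7 CPM (-2.14 ± 0.22 on the log2 scale, adjusted p = 0.00179), and 0 were called higher. Summed markers of Kupffer cells reached 260 to 397 CPM, and those of lymphocytes and neutrophils 2.13 to 14.1 CPM.

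Of the 13 peroxins, 6 were called higher and 0 lower, at an adjusted p under 0.05 over all 16533 genes tested. Of the 8 beta-oxidation enzymes 0 were called, and of the 3 ether lipid enzymes 1 was called higher. Over all 39 genes, 11 were called higher and 1 lower. Among all genes tested, 6.11% were called higher and 5.90% lower.

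The median log2 fold change was 0.53 for the peroxins, 0.02 for the beta-oxidation enzymes and 0.15 for the ether lipid enzymes. Over all 39 it was 0.33, and over all genes tested -0.01. In 9 of the 13 peroxins every Li-KO library was above every Ctl library, as in 17.4% of all genes tested. For 1 beta-oxidation enzyme all Li-KO libraries were above Ctl and for 1 they were below, the latter as in 17.8% of all genes. The difference between the roles was not tested.

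Of the 12 called genes Pex19 alone was called in each of the 6 fits with 1 library left out, while all 12 kept their direction there. Without Ctl replicates 0, 1 and 2, the number of the 39 genes called higher was 5, 1 and 3, where 4.15%, 1.16% and 1.50% of all genes were, and the number called lower was 1, 1 and 0, where 3.55%, 1.37% and 2.28% were. Without Li-KO replicates 0, 1 and 2 the number called higher was 10, 1 and 10, where 3.99%, 1.32% and 6.45% of all genes were, and the number called lower was 1, 0 and 3, where 3.27%, 1.46% and 8.47% were. The peroxins called higher numbered 3, 1 and 1 without Ctl replicates 0, 1 and 2, and 2, 1 and 7 without Li-KO replicates 0, 1 and 2. Their median stayed between 0.42 and 0.58 in these fits.

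With all 6 libraries, other tools gave nearby counts for the 39 genes. DESeq2 called 15 higher and 3 lower, where 10.3% and 9.97% of all genes were. The limma-voom test called 10 and 1 (5.98% and 6.11% of all genes), and limma on log2 FPKM called 9 and 1 at pseudocounts of 1 (5.26% and 5.68%) and 0.1 (5.35% and 5.56%). In edgeR, RLE scaling gave 11 and 1 (6.27% and 5.72%) and no filter on low counts 10 and 1 (4.51% and 4.54%).

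**Figure D1:**
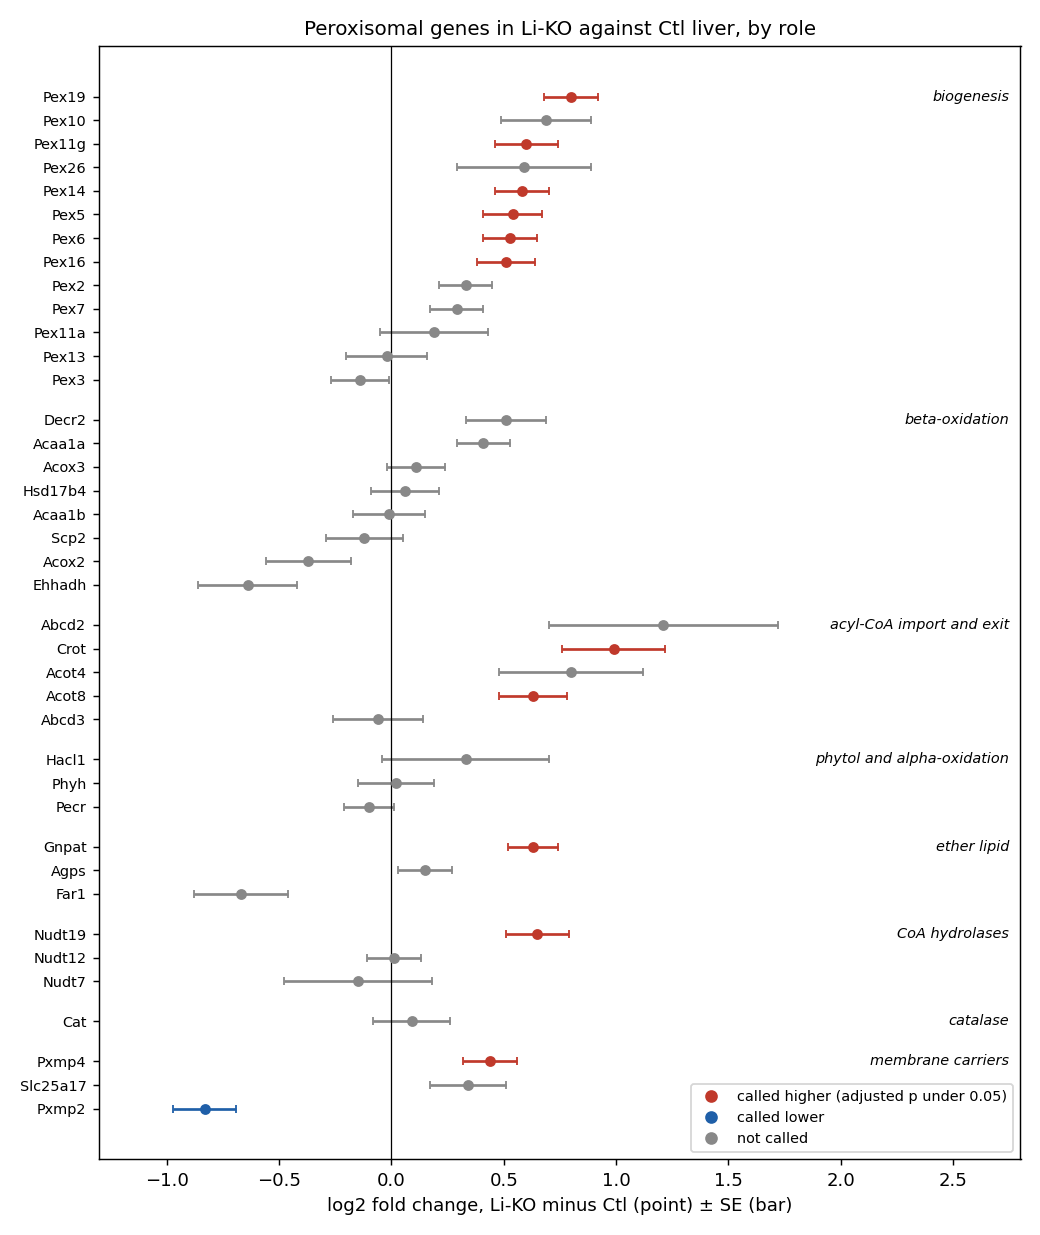
Log2 fold change (horizontal axis, Li-KO minus Ctl, point) with its SE (bar) of each of the 39 genes, grouped by role, from the edgeR fit over 3 libraries a group. Called genes are red (11 higher) or blue (1 lower); 6 of the 11 are peroxins, and the beta-oxidation enzymes scatter on both sides of 0, from -0.64 to 0.51.

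Proteins of the peroxisomal membrane are inserted by Pex19, a cytosolic chaperone and receptor, with its membrane docking partners Pex3 and Pex16. Pex19 (ENSMUSG00000003464.13, mm10 chromosome 1, 172126755 to 172136493) was at 115, 125 and 137 CPM in the Ctl libraries and at 204, 234 and 219 CPM in the Li-KO libraries. Every Li-KO library was above every Ctl library. Its group means were 125.6 ± 10.7 and 219 ± 14.9 CPM (SD, n = 3). Its log2 fold change was 0.80 ± 0.12, and its adjusted p of 0.00761 was the smallest of the 39 genes. Its fold change stayed at 0.74 to 0.87 when libraries were left out in turn.

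Pex16 was at 51.0, 55.4 and 52.1 CPM in Ctl against 78.3, 84.0 and 63.0 CPM in Li-KO. Its Li-KO libraries were again all above the Ctl libraries (log2 fold change 0.51 ± 0.13, adjusted p = 0.0436). Its call ended in 5 of the 6 fits without a library and was kept without Li-KO replicate 2; the highest adjusted p was 0.157. Pex3, the partner that holds Pex19 at the membrane, did not share this pattern, at 32.8, 34.3 and 42.2 CPM in Ctl against 33.1, 31.6 and 34.2 CPM in Li-KO. The groups overlapped, and its log2 fold change was -0.14 ± 0.13 (adjusted p = 0.516).

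Enzymes enter the peroxisome bound to Pex5, the receptor of the common targeting signal, or to Pex7, the receptor of a rarer one, and dock at Pex13 and Pex14. Pex5 rose from 188, 176 and 149 CPM in Ctl to 254, 257 and 234 CPM in Li-KO (log2 fold change 0.54 ± 0.13, adjusted p = 0.0324). Pex14 rose from 47.3, 55.0 and 49.4 to 79.8, 78.5 and 69.3 CPM (log2 fold change 0.58 ± 0.12, adjusted p = 0.0197). For both genes the groups did not overlap. Pex7 was also higher in every Li-KO library, at 78.3, 70.3 and 87.5 CPM against 90.4, 95.2 and 103.5 CPM, and did not pass (0.29 ± 0.12, adjusted p = 0.155). Pex13 had 81.4, 75.8 and 89.4 CPM in Ctl against 63.9, 75.8 and 103 CPM in Li-KO, so that the Ctl range lay inside the Li-KO range. The calls of Pex5 and Pex14 both ended without Ctl replicate 1 or 2 or Li-KO replicate 1. That of Pex5 also ended without Li-KO replicate 0 and that of Pex14 without Ctl replicate 0, and adjusted p reached 0.121 and 0.083. Exons of Pex14 share 1776 bases with Gm17029 on the opposite strand, which had a mean of 1.8 raw fragments a library.

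After delivery the receptor is ubiquitinated by ligases that include Pex2 and Pex10 and pulled out by an ATPase complex with Pex6, which Pex26 anchors. Pex6 rose from 95.9, 92.5 and 78.3 CPM in Ctl to 137, 121 and 126.5 CPM in Li-KO (log2 fold change 0.53 ± 0.12, adjusted p = 0.0305). Its adjusted p reached 0.106 without a library, and the call ended without Ctl replicate 1 or 2 and without Li-KO replicate 0 or 1.

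Pex10, the least abundant peroxin listed, had 5.10, 6.11 and 5.86 CPM in Ctl against 9.73, 10.7 and 7.19 CPM in Li-KO. The groups were apart, and the test just missed (log2 fold change 0.69 ± 0.20, adjusted p = 0.0609). Pex2 had 55.8, 48.5 and 56.0 CPM against 63.5, 62.9 and 75.3 CPM (0.33 ± 0.12, adjusted p = 0.12), again apart. Pex26 had 42.2, 63.9 and 48.1 CPM in Ctl against 50.8, 118 and 63.8 CPM in Li-KO. Only Li-KO replicate 1 of Pex26 lay above the Ctl range, and its log2 fold change was 0.59 with that library and 0.16 without it.

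Pex11 proteins curve and divide the organelle. Pex11g rose from 36.7, 39.9 and 38.5 CPM in Ctl to 66.8, 59.6 and 48.0 CPM in Li-KO (0.60 ± 0.14, adjusted p = 0.0325), and its call was kept only without Li-KO replicate 2. Its exons share 1396 bases with Gm44775 on the opposite strand, which had a mean of 19.2 raw fragments a library. Pex11a, the form that PPARalpha agonists induce, had 85.8, 110 and 101 CPM in Ctl against 72.0, 117 and 151 CPM in Li-KO. Its Li-KO libraries lay on both sides of the Ctl range, with an adjusted p of 0.643.

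**Figure D2:**
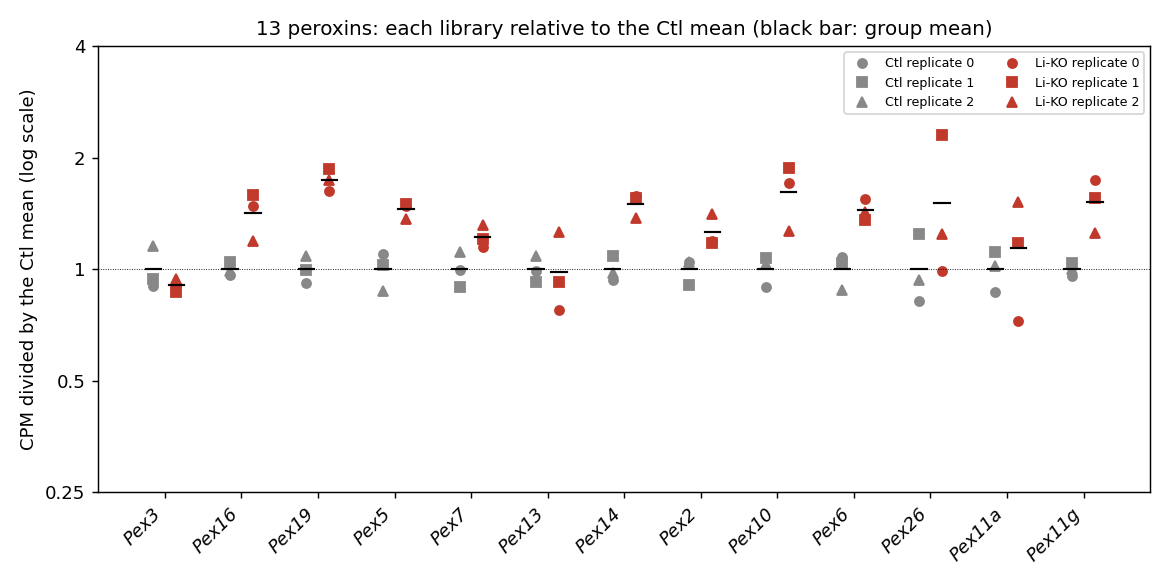
Level of the 13 peroxins in each library, as CPM divided by the mean of the 3 Ctl libraries (vertical axis, log scale); grey marks are Ctl, red marks Li-KO, marker shapes the replicates and black bars the group means. Both groups are tight and apart for Pex19, Pex5, Pex14 and Pex6, while Pex26, Pex11a and Pex13 spread in Li-KO.

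Summed over the 13 peroxins, the level was 916, 953 and 934.5 CPM in Ctl against 1203, 1344 and 1298 CPM in Li-KO. The sum over the 8 beta-oxidation enzymes was 5070 to 5490 CPM in Ctl against 4710 to 5250 CPM in Li-KO, so that the groups overlapped. In bulk liver, fewer cells of a type and less RNA per cell cannot be told apart, and the same holds for the reverse.

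Peroxisomal beta-oxidation starts with an acyl-CoA oxidase. Acox2 acts on branched chains and bile acid intermediates, and Acox3 on branched chains. Acox2 had 304, 224 and 221 CPM in Ctl against 239, 177 and 163 CPM in Li-KO, with overlapping groups (-0.37 ± 0.19, adjusted p = 0.231). Acox3 overlapped too, at 51.6 ± 5.48 and 55.6 ± 4.23 CPM.

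The middle steps fall to bifunctional proteins. Ehhadh, the L-bifunctional protein and a classical PPARalpha target, had 396, 319 and 333 CPM in Ctl against 148, 240 and 282 CPM in Li-KO. Every Li-KO library was below every Ctl library, but the difference did not pass (log2 fold change -0.64 ± 0.22, adjusted p = 0.0982). Li-KO replicate 0 was the lowest, and without it the fold change was the smallest of the fits without a library, -0.40. Hsd17b4, the D-bifunctional protein, had 505, 535 and 605 CPM against 495, 585 and 632 CPM, with overlapping groups and an adjusted p of 0.836.

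The last step is thiolysis, by the thiolases Acaa1a and Acaa1b or by the thiolase form of Scp2. Acaa1a was higher in every Li-KO library, at 119, 105 and 108 CPM against 130, 152 and 157 CPM, and just missed the threshold (0.41 ± 0.12, adjusted p = 0.0597). Acaa1b, its more abundant neighbour, had 633, 692.5 and 637 CPM against 512.5, 750.0 and 686 CPM, with overlap. These paralogs are nearly alike, and the labels do not say how fragments matching both were assigned, so the split between them is uncertain. Scp2 was at 3016 ± 209 and 2773 ± 408 CPM, with overlap. Decr2, an auxiliary reductase for unsaturated chains, had 225, 229 and 274 CPM in Ctl against 270, 341 and 429 CPM in Li-KO. The ranges met only at Ctl replicate 2, with 0.51 ± 0.18 and an adjusted p of 0.101.

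Fatty acyl groups enter through ABCD transporters. Abcd3, which carries branched acyl groups, had 810.5, 1056 and 1065 CPM in Ctl against 706, 1013 and 1087 CPM in Li-KO, with overlapping groups. Abcd2 varied most among the Ctl libraries of all 39 genes, at 38.6, 8.67 and 21.1 CPM, and had 29.7, 47.9 and 80.5 CPM in Li-KO. Its log2 fold change was the largest of the 39, 1.21, but its SE of 0.51 left an adjusted p of 0.158.

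Shortened acyl groups leave as carnitine esters or free acids, and both routes had a called member. Crot, carnitine octanoyltransferase, rose from 251, 332 and 444.5 CPM in Ctl to 548, 694 and 799 CPM in Li-KO. This was a 1.99-fold difference between the means, with no overlap (log2 fold change 0.99 ± 0.23, adjusted p = 0.0304). It was the largest change among the called members. The call ended without Ctl replicate 0 or 1 and without Li-KO replicate 1 or 2; its highest adjusted p was 0.105.

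Acot8, the broad peroxisomal thioesterase, rose from 9.25, 10.7 and 11.6 CPM to 15.6, 16.8 and 16.4 CPM (0.63 ± 0.15, adjusted p = 0.0313). Its exons share 246 bases with Snx21 on the opposite strand, and the strand setting of the counting is not given. Snx21 itself was not called (log2 fold change 0.23 ± 0.24, adjusted p = 0.558). The call of Acot8 ended without any of the Ctl replicates or Li-KO replicate 1, and its adjusted p reached 0.106. Acot4, a thioesterase for dicarboxylic acyl groups in a cluster of near-identical genes, had 43.8, 36.2 and 40.3 CPM in Ctl against 36.4, 67.6 and 105 CPM in Li-KO, where replicate 0 stayed at the Ctl level. Its adjusted p was 0.138, and 0.0162 without Li-KO replicate 0.

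Phytanic acid from chlorophyll is shortened by alpha-oxidation. Of the 3 genes of this role 0 were called, where 6.11% of all genes tested were called higher and 5.90% lower. Phyh, the phytanoyl-CoA hydroxylase, was at 2378 ± 246 and 2419 ± 333 CPM, and Pecr, an enoyl-CoA reductase that acts in phytol breakdown, at 173 ± 11.8 and 161 ± 10.5 CPM. Hacl1, the lyase of the next step, spread widely in Li-KO, with 154, 397 and 535 CPM against 330, 251 and 285 CPM in Ctl. Li-KO replicate 0 of Hacl1 was below and replicates 1 and 2 were above all Ctl libraries. Exons of Hacl1 share 1540 bases with Gm49387, a protein-coding gene on the same strand.

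Ether lipid synthesis, the source of plasmalogens, begins in the peroxisome with Gnpat and Agps and draws its fatty alcohol from Far1, the rate-limiting reductase. Of these 3 genes 1 was called higher, where 6.11% of all genes tested were, and 0 lower, where 5.90% were. Gnpat rose from 57.8, 52.5 and 57.6 CPM in Ctl to 86.3, 91.6 and 81.8 CPM in Li-KO, with the groups well apart (0.63 ± 0.11, adjusted p = 0.0121). The call was lost without replicate 1 of either group, at an adjusted p of up to 0.0669. Its exons share 88 bases with 2810004N23Rik on the opposite strand, which was not called (0.18 ± 0.12, adjusted p = 0.358). Agps had 37.6, 33.7 and 37.3 CPM against 38.6, 39.3 and 42.8 CPM. The groups of Agps were apart by a narrow margin, with 0.15 ± 0.12 and an adjusted p of 0.418. Far1, low in liver, had 8.0, 10.3 and 8.62 CPM in Ctl against 4.74, 5.36 and 6.78 CPM in Li-KO. Each Li-KO library of Far1 was below each Ctl library, with -0.67 ± 0.21 and an adjusted p of 0.0672.

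The later steps of the pathway run in the endoplasmic reticulum. A list of other ether lipid steps held genes of both synthesis and breakdown. Of its 7 tested genes, 2 were called higher and 1 lower, where 6.11% and 5.90% of all genes tested were. Dhrs7b, which reduces the product of Agps, rose from 14.7 ± 0.873 to 29.4 ± 4.66 CPM (1.0 ± 0.15, adjusted p = 0.00776). Tmem86b, which cleaves lysoplasmalogens, rose from 43.5 ± 3.07 to 96.5 ± 10.5 CPM (1.15 ± 0.13, adjusted p = 0.00214). Tmem189, the desaturase that makes the vinyl ether bond, fell from 18.6, 29.7 and 26.6 CPM to 5.03, 8.99 and 13.6 CPM (-1.44 ± 0.33, adjusted p = 0.0313). Dhrs7b and Tmem86b kept their calls in each fit without a library. Tmem189 lost it without Ctl replicate 1 or 2 or Li-KO replicate 1, at up to 0.114.

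**Figure D3:**
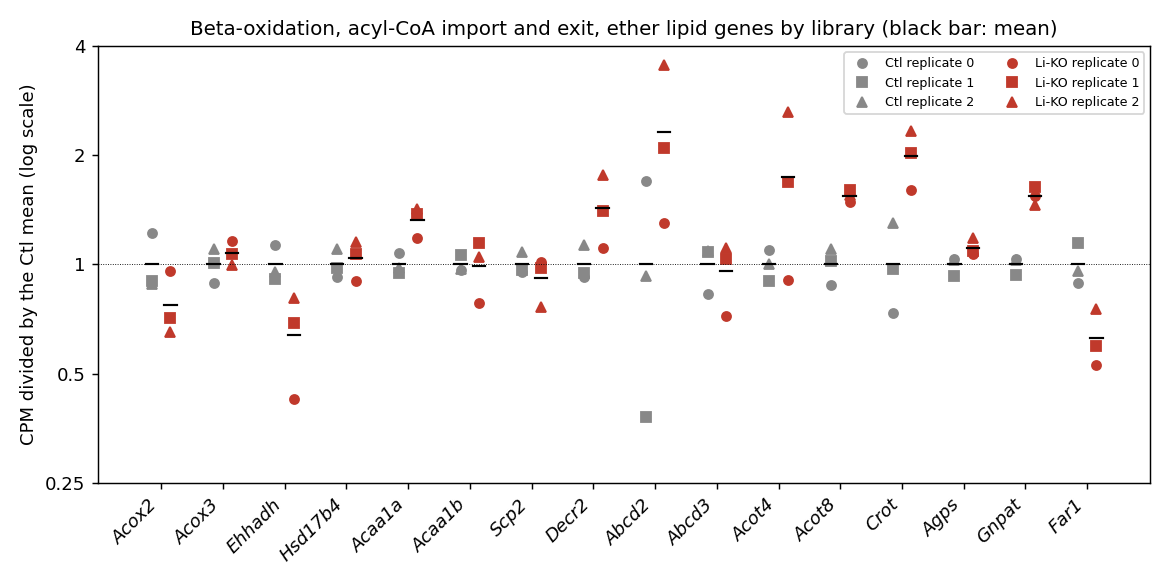
Level of the genes of beta-oxidation, acyl-CoA import and exit, and ether lipid synthesis in each library, as CPM divided by the mean of the 3 Ctl libraries (vertical axis, log scale); grey is Ctl, red Li-KO, shapes are replicates and black bars group means. Ehhadh lies below its Ctl libraries, and Crot, Acot8 and Gnpat lie above them. Among the Li-KO libraries, replicate 0 (red circles) is lowest for all 5 import and exit genes.

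Among the remaining genes (3 listed as hydrolases of coenzyme A, catalase and 3 membrane carriers), 2 were called higher and 1 lower. Over all genes tested the shares were 6.11% and 5.90%. Nudt19, a hydrolase of coenzyme A esters, rose from 63.6, 47.6 and 52.0 CPM to 75.5, 90.1 and 90.0 CPM (0.65 ± 0.14, adjusted p = 0.0271). Its exons share 938 bases with B230322F03Rik on the opposite strand, which had a mean of 15.7 raw fragments a library. The call of Nudt19 ended without Ctl replicate 1 or 2 and without Li-KO replicate 1, at up to 0.104. Its relative Nudt7, the main peroxisomal coenzyme A hydrolase of liver, varied inside both groups, with 588, 1059 and 1068 CPM in Ctl against 864, 1123 and 467 CPM in Li-KO. Nudt12, which acts on nicotinamide dinucleotides, was at 109.6 ± 5.60 and 111 ± 11.4 CPM.

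Pxmp2, a channel of the peroxisomal membrane, was the 1 gene of the 39 called lower, from 127.5, 90.2 and 120 CPM in Ctl to 64.2, 61.9 and 64.2 CPM in Li-KO. The Li-KO libraries were closely alike and all below Ctl, with -0.83 ± 0.14 and an adjusted p of 0.0125. The call was lost without Ctl replicate 2 or Li-KO replicate 1, at up to 0.0625. Pxmp4, another membrane protein, rose from 90.4, 89.6 and 97.4 CPM to 110, 128 and 139 CPM (0.44 ± 0.12, adjusted p = 0.0496). Its call was kept only without Li-KO replicate 0. Slc25a17, a carrier of coenzyme A and other cofactors, had 60.8, 97.6 and 79.8 CPM against 90.0, 107 and 105 CPM, with overlap and an adjusted p of 0.233. Cat, catalase, which removes hydrogen peroxide, was at 3814, 4189 and 4434 CPM in Ctl against 3925, 4750 and 4575 CPM in Li-KO, with overlap and 0.09 ± 0.17.

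Per length, the most abundant of the 39 genes were enzymes. On the FPKM scale (fragments per kilobase of transcript, scaled to library size), the highest Ctl levels were those of Phyh at 1263 ± 125 and Cat at 1260 ± 93.9, which did not differ beyond their spread. Scp2 followed at 909 ± 74.2 FPKM, Nudt7 at 586 ± 185 and Acaa1b at 348 ± 18.8. The highest peroxin was Pex19, at rank 16 with 49.8 ± 5.12 FPKM in Ctl and 84.0 ± 6.52 in Li-KO. It was followed by Pex5 at 45.5 ± 4.6 FPKM in Ctl, which overlaps it within the spread. The lowest were Abcd2 at 2.86 ± 1.87, Pex10 at 2.63 ± 0.174 and Far1 at 1.56 ± 0.257 FPKM. Nudt12 had equal CPM in the groups but 23.9 ± 0.443 FPKM in Ctl and 31.2 ± 3.05 in Li-KO; the reason was not tested.

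**Figure D4:**
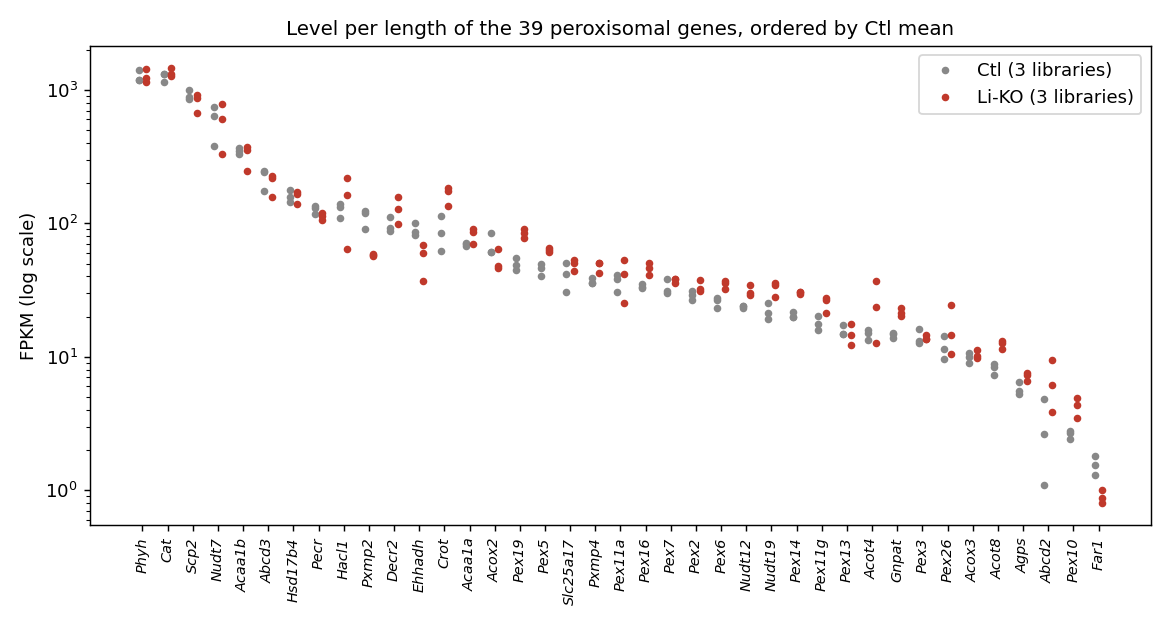
FPKM (vertical axis, log scale) of the 39 genes in each library, grey for Ctl and red for Li-KO, ordered by the Ctl mean. The levels run from 1263 FPKM (Phyh) to 1.56 FPKM (Far1) in Ctl, and the peroxins lie between ranks 16 and 38.

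The Li-KO libraries differed among themselves. Li-KO replicate 0 had the lowest value of the 3 Li-KO libraries in 24 of the 39 genes, while it was lowest for 36.8% of all genes tested. It was lowest in 5 of the 5 import and exit genes, in 5 of the 8 beta-oxidation enzymes and in 5 of the 13 peroxins. Among the controls, Ctl replicate 0 was lowest in 21 of the 39 and in 33.6% of all genes tested, and Ctl replicate 2 was highest in 18 of the 39 and in 34.6% of all genes. Summed markers of some other cells were also highest in Li-KO replicate 0. The sum over 9 stellate cell and fibroblast markers was 746 CPM there against 581 to 613 CPM in the other 5 libraries. That over 7 cholangiocyte markers was 163 CPM against 45.2 to 77.1 CPM. Single genes weighed heavily in both sums, with Col3a1 at 237 CPM and Spp1 at 144 CPM in Li-KO replicate 0. The stellate markers Col1a1 (33.4 CPM), Col1a2 (57.4 CPM), Pdgfrb and Des and the cholangiocyte marker Krt19 were also highest there. The rest of these lists were not, and the stellate markers Dcn (143 CPM) and Reln (204.5 CPM) were at their lowest. The sum over 8 lymphocyte markers was 14.1 CPM in Li-KO replicate 0 and 2.24 to 4.53 CPM in the others. None of the 9 stellate markers and 1 of the 7 cholangiocyte markers, Sox9, was called, in the lower direction, and no marker of either list was at 0 in all libraries. Erythroid markers summed to 743 to 814 CPM in Ctl against 296 to 593 CPM in Li-KO, with 0 of 7 called. The part of these cells in the values of the 39 genes was not tested. The median coefficient of variation of the 39 was 10.5% in Ctl and 12.2% in Li-KO, against 14.5% and 18.4% over all genes tested.

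Other peroxisomal genes, listed by their known place in the organelle, were called in both directions. Of 46 such genes 40 could be tested, and 7 were called higher and 6 lower. Among all genes tested, 6.11% were called higher and 5.90% lower. The median log2 fold change of the 40 was 0.24, against -0.01 over all genes tested. Of the 6 called lower, 4 were oxidases, transaminases or antioxidants. Gstk1, a glutathione transferase of peroxisomes and mitochondria, fell from 88.8 ± 14.5 to 25.1 ± 4.09 CPM (-1.83 ± 0.17, adjusted p = 0.00111). Mpv17l, a membrane protein, fell from 50.3 ± 6.27 to 15.6 ± 3.53 CPM (-1.69 ± 0.19, adjusted p = 0.00249). Both kept their calls in each fit without a library. Paox, a polyamine oxidase, fell from 26.9 ± 3.95 to 14.2 ± 4.54 CPM (-0.92 ± 0.23, adjusted p = 0.0369), a call kept only without Li-KO replicate 0.

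Those called higher included Amacr, a racemase of branched acyl groups, from 121 ± 11.1 to 190.4 ± 20.7 CPM (adjusted p = 0.0182). Ech1, an isomerase of beta-oxidation in peroxisomes and mitochondria, rose from 208 ± 10.9 to 339 ± 68.5 CPM (adjusted p = 0.0316). Tysnd1, the protease that trims imported beta-oxidation enzymes, rose from 64.3 ± 2.79 to 89.4 ± 4.91 CPM (adjusted p = 0.0275). Prdx5, a peroxiredoxin, rose from 185 ± 19.2 to 263 ± 22.0 CPM (adjusted p = 0.0398). Slc27a4, an acyl-CoA synthetase, rose from 46.4 ± 5.14 to 71.0 ± 5.88 CPM (adjusted p = 0.0227). All 7 of the higher calls ended without Ctl replicate 0, 1 or 2 and without Li-KO replicate 1. In these fits 0 of the 40 genes were called higher, and 1.16% to 4.15% of all genes were.

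Ppara, the gene of the receptor that regulates many of these enzymes, had 262, 286 and 302 CPM in Ctl against 238, 371 and 262 CPM in Li-KO, with overlap and an adjusted p of 0.919. Of 12 PPAR receptors, partners and coactivators, 0 were called higher and 2 lower. Ppargc1b, a coactivator of mitochondrial and lipid genes, fell from 16.0 ± 3.38 to 7.99 ± 1.18 CPM (-1.0 ± 0.21, adjusted p = 0.021), and Ncoa2, a nuclear receptor coactivator, from 122.5 ± 13.3 to 87.6 ± 3.42 CPM (-0.48 ± 0.12, adjusted p = 0.0357). The call of Ppargc1b ended in 3 and that of Ncoa2 in 6 of the 6 fits without a library. Of 6 tested genes of autophagy of peroxisomes, 1 was called higher, where 6.11% of all genes tested were. This was Map1lc3b, the LC3B gene, from 58.7 ± 5.66 to 81.7 ± 5.30 CPM (0.48 ± 0.12, adjusted p = 0.0374). It was called when replicate 0 of either group was left out, and in none of the other 4 such fits.

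Promoters are shown for Pex14, Crot and Gnpat, called genes of 3 roles, and for Ehhadh, so that base content and motifs can be compared between called genes and an enzyme that was not called. The RefSeq table (GRCm38.p6) held 39 promoters of 33 of the 39 genes, and had no entry for Pex19, Pex2, Hsd17b4, Abcd2, Nudt12 and Pxmp2. Each line gives the 250 bases before the RefSeq start site, 5′ to 3′ on the gene's strand. The GENCODE starts of Pex14 (149099876) and Crot (8997324) lie inside these bases, and those of Gnpat and Ehhadh do not. Capitals mark CACCC, a core bound by Kruppel-like factors, and CCGCCC, the GC box, on either strand. Matches may overlap. The windows are chr4:149099844-149100093 (minus strand) for Pex14, chr5:8997147-8997396 (minus) for Crot, chr8:124862783-124863032 (plus) for Gnpat and chr16:21787835-21788084 (minus) for Ehhadh.
Pex14: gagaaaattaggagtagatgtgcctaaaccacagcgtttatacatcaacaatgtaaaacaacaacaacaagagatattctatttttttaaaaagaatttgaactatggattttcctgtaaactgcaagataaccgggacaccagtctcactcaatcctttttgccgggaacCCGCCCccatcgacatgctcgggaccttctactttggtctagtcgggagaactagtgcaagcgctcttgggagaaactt
Crot: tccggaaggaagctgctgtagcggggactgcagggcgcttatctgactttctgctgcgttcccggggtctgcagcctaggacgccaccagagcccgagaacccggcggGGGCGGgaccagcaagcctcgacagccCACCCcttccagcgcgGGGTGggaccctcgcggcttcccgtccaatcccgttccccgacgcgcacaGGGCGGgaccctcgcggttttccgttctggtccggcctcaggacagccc
Gnpat: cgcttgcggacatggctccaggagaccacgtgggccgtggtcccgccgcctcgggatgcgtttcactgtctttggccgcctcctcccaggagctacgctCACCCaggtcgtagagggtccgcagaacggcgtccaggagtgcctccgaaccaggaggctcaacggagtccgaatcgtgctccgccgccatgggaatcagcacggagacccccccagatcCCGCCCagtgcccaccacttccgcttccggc
Ehhadh: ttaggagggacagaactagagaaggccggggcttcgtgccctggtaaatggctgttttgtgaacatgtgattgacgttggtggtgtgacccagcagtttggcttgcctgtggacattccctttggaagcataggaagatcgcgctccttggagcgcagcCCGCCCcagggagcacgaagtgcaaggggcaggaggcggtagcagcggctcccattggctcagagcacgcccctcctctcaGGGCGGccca

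In these windows, Crot held 2 CACCC and 2 CCGCCC matches, Gnpat 1 of each, Pex14 0 and 1, and Ehhadh 0 and 2. G and C made up 69.6% of the bases of Crot, 67.6% of Gnpat, 60.4% of Ehhadh and 42.0% of Pex14. Among the promoters of the 39 genes, CACCC stood in 24 of 39 (61.5%), against 52.0% of all 32851 promoters in the table. CCGCCC stood in 25 of 39 (64.1%) against 32.7%. AGGTCA, the hexamer bound by nuclear receptors, stood in 4 of 39 (10.3%) against 14.0%, and in none of the 4 windows shown. For the 14 promoters of peroxins, CACCC stood in 50.0% and CCGCCC in 57.1%, and for the 8 of beta-oxidation enzymes each stood in 62.5%. A match is a run of letters and not a bound site.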

How the data were processed

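RNA of mouse liver was sequenced in 6 libraries after a stranded total RNA library preparation, per the labels' protocols. Per the submitters' processing notes, STAR, Cufflinks and Cuffdiff were used with mm10; no source used here names their versions, the annotation or the strand setting. The deposited table lists estimated counts, unnormalized raw fragments per gene and library, per the file headers; 3.29% of the values are not whole. It also lists FPKM after Cuffdiff's scaling between libraries, per the file headers. The table calls Ctl WT and Li-KO KO, and libraries were joined by title and replicate number.

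Estimated counts were rounded. The 77 genes skipped in any library for too many fragments were left out. Of 48432 gene IDs, 48051 found a symbol once the version was dropped. Gene positions and exons are those of GENCODE M21. Genes with low counts were removed with filterByExpr (minimum count 10, minimum total 15), leaving 16533. Li-KO was compared with Ctl with edgeR's quasi-likelihood test (edgeR 4.0.16 in R 4.3.3, two-sided) with TMM scaling and group as the only term, Benjamini-Hochberg adjusted over all genes tested, called at an adjusted p under 0.05. SE is the absolute log2 fold change over the root of F. The fit was tested on simulated data. It recovered 83 of 100 genes with an absolute log2 fold change of 2 and 35 of 100 with 1, with 11 false calls. A gene that was not called may therefore still have changed. Alternatives used DESeq2 1.42.0, limma 3.58.1 (voom, and log2 FPKM with pseudocounts of 1 and 0.1), RLE scaling, no filter, a replicate block and leaving out each library. Figures used matplotlib 3.10.9.

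The members and gene lists were chosen with earlier results of these data known. All 39 members were named, with Ppara and up to 4 called genes with the smallest p of each other list, some of which are not reported here; genes of overlapping exons were named after their values were seen, as were the 4 promoters.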

Additional observations from a re-analysis of the deposited data

How the results depend on the processing

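The number of the 39 genes called higher was 9 to 15 and lower 1 to 3 with all libraries, with DESeq2 giving 15 and 3 against 11 and 1 with edgeR. Over the fits without a library they were 1 to 10 and 0 to 3. The peroxins called higher were 5 to 7 with all libraries and 1 to 7 without one. Of the 40 other peroxisomal genes, 7 higher and 6 lower became 3 and 4 with limma on log2 FPKM at either pseudocount, and 0 to 7 and 2 to 5 without a library. The cause was not tested.

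The median log2 fold change of the peroxins was 0.53, 0.43 and 0.44 with limma on log2 FPKM at pseudocounts of 1 and 0.1, and 0.42 to 0.58 without a library. That of the beta-oxidation enzymes was 0.02, with -0.04 to 0.11 without a library, highest without Li-KO replicate 0, and -0.06 on log2 FPKM at either pseudocount. That of the ether lipid enzymes was 0.15, with 0.27 and 0.30 on log2 FPKM and 0.10 to 0.20 without a library. Klf15 kept its call in each alternative.

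Some genes changed sign, none of them called. With all libraries in edgeR, those farthest from 0 among them were Hacl1 at 0.33, Pex11a at 0.19 and Nudt7 at -0.15. On log2 FPKM at pseudocounts of 1 and 0.1, Pex3 was at 2.6e-05 and 0.00045, and Hsd17b4 at -0.0095 at both. Without a library the log2 fold change ranged from -0.24 to 0.14 for Pex13, -0.07 to 0.45 for Pex11a, -0.03 to 0.17 for Hsd17b4, -0.13 to 0.15 for Acaa1b, -0.19 to 0.12 for Abcd3, -0.10 to 0.11 for Phyh, -0.07 to 0.71 for Hacl1, -0.45 to 0.13 for Nudt7, -0.04 to 0.12 for Nudt12 and -0.18 to 0.18 for Ppara.

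The labels state no pairing by replicate number, and these values cannot decide whether there was one. Libraries sharing a number had correlations of their deviations from the group means of 0.018, 0.081 and 0.067. Libraries of unlike number had -0.113 to 0.037. Ctl replicate 0 correlated better with Li-KO replicate 2 (0.037) than with its own number, while Ctl replicates 1 and 2 correlated best with their own. With the replicate block, 10 of the 39 genes were called higher and 1 lower, where 5.78% and 6.14% of all genes tested were, the 13 peroxins had 6, and the medians were 0.52, 0.01 and 0.15. Klf15 was also called with the block.

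Depth over all libraries was least for Pex10, Far1 and Acot8, and the lowest value behind any of the 39 genes was 147 raw fragments in a library. Abcd2 had 322 raw fragments in Ctl replicate 1, fewer than Acot8 in any library.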
